A study of Mus musculus with 29 samples.

Results

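Keratin-associated proteins are the matrix proteins in which the keratin filaments of the hair shaft are embedded. Every gene whose symbol begins with Krtap was taken from 3 deposited tables of mouse skin RNA sequencing, which gave 54 of the 25226 genes listed in any table. All 54 were listed in day 3 epidermis and in day 3 dermis, and 52 in the week 1 table. The symbols fall into 26 numbered subfamilies, of which subfamily 4 has 8 members, subfamily 19 has 6 and subfamily 5 has 5. In mm10 with the GENCODE M21 annotation, 23 members lie on chromosome 16, 22 on chromosome 11, 5 on chromosome 7, 3 on chromosome 10 and 1 on chromosome 1, and each member was listed with 1 transcript.

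The growing hair shaft hardens as keratins of the cortex and cuticle are cross-linked, largely through disulfide bonds, to keratin-associated proteins. Some subfamilies are rich in cysteine (the high-sulfur groups, such as subfamilies 1 to 5, 9 and 10), and others are rich in glycine and tyrosine (such as subfamilies 6 to 8, 19 and 20 to 22). Their genes are switched on late, in cells leaving the hair matrix, downstream of transcription factors that include the homeobox protein Hoxc13. Dlx3, another homeobox factor of the hair matrix and of differentiating epidermis, is the gene deleted here.

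Dlx3 was deleted in adult mice of mixed background at postnatal days 42 to 46 by a tamoxifen-inducible Cre driven by keratin 14 regulatory sequences (icKO), which acts in basal keratinocytes and hair follicle epithelium and not in dermal fibroblasts. The controls are labelled WT, with no word on floxed alleles, and the labels count time from tamoxifen in both genotypes. Epidermis taken 3 days after tamoxifen was represented by 4 WT and 4 icKO libraries after vehicle and by 3 WT and 4 icKO libraries after a STAT3 inhibitor, and day 3 dermis by 3 WT and 3 icKO libraries. At 1 week, epidermis (topical tamoxifen, per the file headers) and dermis (intraperitoneal tamoxifen) were each represented by 2 WT and 2 icKO libraries. Values were RPKM, in which read numbers are divided by the length of the transcript and by sequencing depth, a unit that allows levels of different genes to be compared. The columns name a group and no replicate number, so libraries carry letters that are names only.

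The promoters of subfamily 3, whose members were measured most often in epidermis, and of Krtap8-1, the most abundant member of growing hair, are shown first because these genes carry most of the results that follow. Each is the stretch of 250 bases before the RefSeq start (GRCm38.p6), read on the minus strand, which is the gene's own strand, from 5′ to 3′. Krtap3-1 lies at chr11:99566631-99566880, Krtap3-2 at chr11:99556854-99557103, Krtap3-3 at chr11:99550864-99551113 and Krtap8-1 at chr16:89487953-89488202. Capitals mark TATAAA, the letters of a TATA box, and TAATT or AATTA, the core letters bound by many homeobox factors; the last 2 overlap as TAATTA in Krtap3-1 and Krtap3-3.
Krtap3-1: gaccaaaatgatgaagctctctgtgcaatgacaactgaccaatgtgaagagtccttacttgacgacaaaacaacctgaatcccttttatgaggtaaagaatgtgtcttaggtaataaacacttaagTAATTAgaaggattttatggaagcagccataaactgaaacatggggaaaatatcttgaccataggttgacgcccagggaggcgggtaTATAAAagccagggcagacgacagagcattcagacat
Krtap3-2: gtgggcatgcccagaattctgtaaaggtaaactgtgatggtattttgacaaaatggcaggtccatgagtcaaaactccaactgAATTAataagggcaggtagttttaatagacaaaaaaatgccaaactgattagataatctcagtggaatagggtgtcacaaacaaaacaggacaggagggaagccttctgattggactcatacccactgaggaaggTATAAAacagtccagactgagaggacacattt
Krtap3-3: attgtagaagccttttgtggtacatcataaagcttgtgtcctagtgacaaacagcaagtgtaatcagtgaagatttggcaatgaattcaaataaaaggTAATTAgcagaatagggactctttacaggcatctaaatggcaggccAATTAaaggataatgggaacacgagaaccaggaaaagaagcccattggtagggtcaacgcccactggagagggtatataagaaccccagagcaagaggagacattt
Krtap8-1: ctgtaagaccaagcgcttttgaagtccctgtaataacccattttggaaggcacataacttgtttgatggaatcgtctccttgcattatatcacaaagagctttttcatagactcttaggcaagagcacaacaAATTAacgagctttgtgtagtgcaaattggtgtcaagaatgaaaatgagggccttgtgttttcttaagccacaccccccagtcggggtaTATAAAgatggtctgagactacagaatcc

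TATAAA began 37 bases before the start in Krtap3-1, 32 in Krtap3-2 and 29 in Krtap8-1, and was not found in the Krtap3-3 window. That window holds the similar letters tatataag near its end, so the exact search does not settle whether Krtap3-3 has a TATA box. A promoter window was listed for 49 of the 54 members. On the gene's own strand, 29 of these 49 (59.2%) held TATAAA beginning 40 to 20 bases before the start, against 1.99% of the 32851 promoters in the same RefSeq table. With both strands and all 250 bases searched, TATAAA (or TTTATA) was in 39 of 49 Krtap windows (79.6%) against 12.4% of all promoters, and TAATT (or AATTA) in 33 (67.3%) against 25% of all. TTTAT (or ATAAA), the core letters bound by some HOX proteins, was in 44 (89.8%) against 37.3%, but it overlaps TATAAA or its reverse. The letters bound by LEF1, CTTTG (or CAAAG), were in 29 (59.2%) against 48.6%. These are descriptions of the letters in the windows, and members of a cluster share sequence.

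Sequence shared within the family limits how far single members can be told apart. At least one 50-base window occurred in another listed gene for 40 members, and over 25% of the windows were shared for 14 members. Krtap3-2 shared 28.9% of its windows and Krtap3-3 41.3%, mostly with each other, and Krtap4-13 shared 81.3%. None of the windows of Krtap7-1, Krtap8-1, Krtap11-1, Krtap17-1, Krtap19-5 or Krtap22-2 were shared. Krtap14 and Krtap15 overlap on opposite strands and Krtap10-4, Krtap10-10 and Krtap12-1 lie within Tspear. The sources used here do not say how strand and shared reads were treated, and these members are uncertain.

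Several libraries stood apart from their group. Day 3 epidermis was not pure, with Acta1, an actin of skeletal muscle, at 2185 to 5355 RPKM against 1.92 to 7.56 in week 1 epidermis. Fibroblast markers summed to 1878 to 13248 RPKM in day 3 epidermis and 1009 to 5095 in day 3 dermis. Basal keratinocyte markers summed to 3195 to 7129 RPKM in day 3 epidermis and 4903 to 8537 in day 3 dermis. These markers do not separate the day 3 tissues as labelled, so their Krtap levels are not read as a tissue difference. In the vehicle icKO group, libraries a and b differed by an SD of 0.059 in log2 ratio over 4560 genes, against 0.119 to 0.485 for other pairs in that tissue apart from inhibitor icKO a and d (0.077), so whether a and b are separate samples cannot be told. Vehicle icKO library c held both Xist (7.2 RPKM) and the Y-linked Ddx3y (5.88 RPKM), whereas every other day 3 epidermis library reached 1 RPKM for only one of them, so whether c holds RNA of 1 animal or of several cannot be told. Dlx3 in vehicle epidermis was 3.04, 0.950, 7.13 and 7.21 RPKM in WT and 1.5, 1.58, 2.22 and 1.29 in icKO, so WT library b was below every icKO library. Per the deposited sheets, libraries had 48.9 to 70.3 M alignments (day 3 epidermis), 10.1 to 37.3 M alignments (day 3 dermis) or 37.3 to 57.3 M reads (week 1). No source says that libraries of a group came from separate animals, so p-values measure the spread between these libraries.

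**Figure D1:**
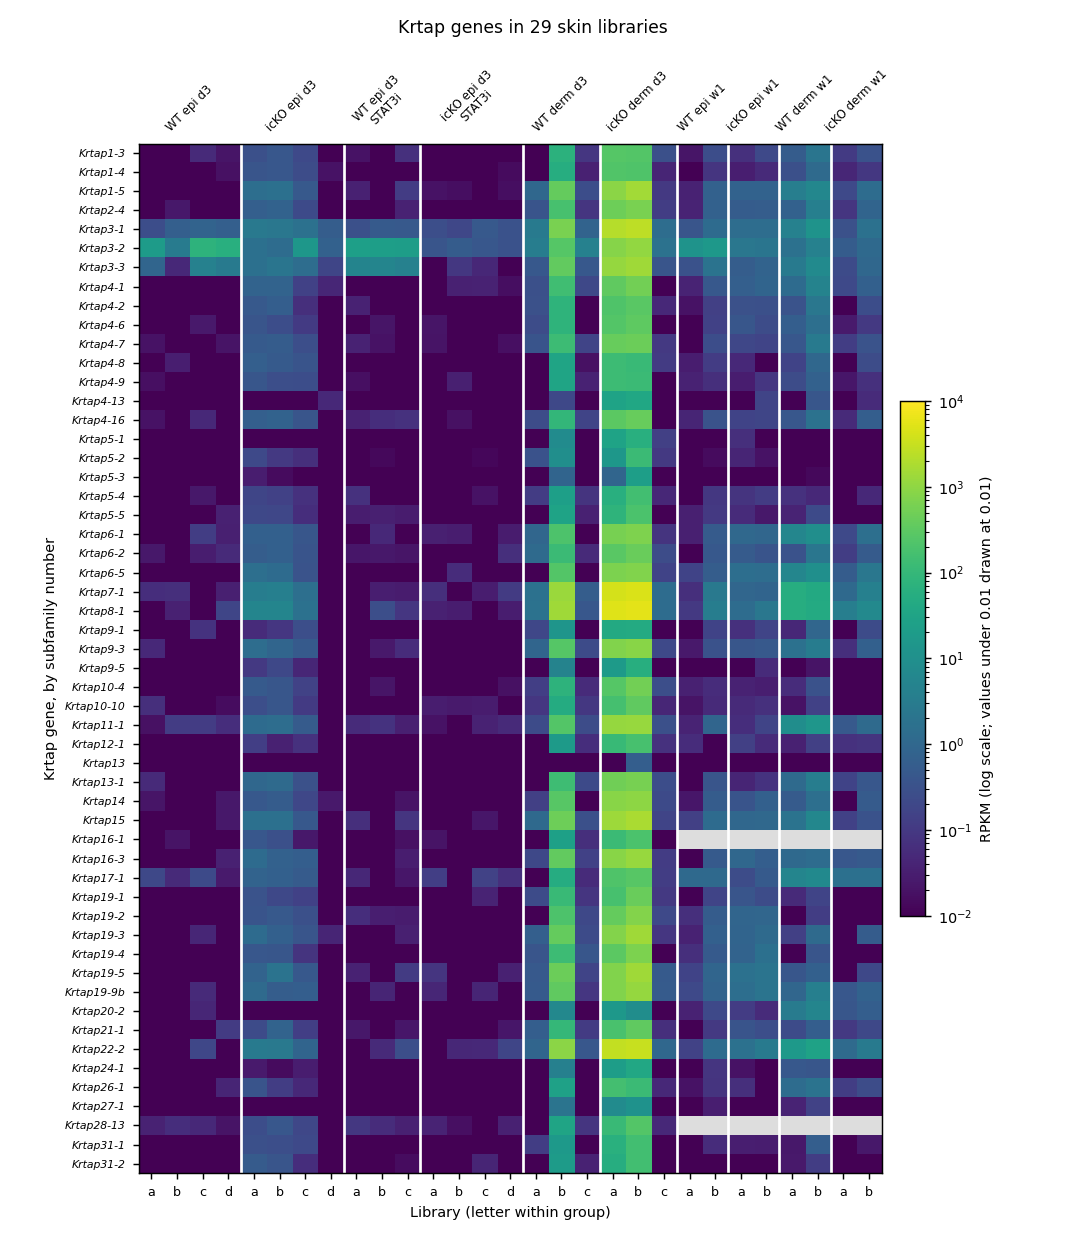
Each row is a Krtap gene, ordered by subfamily number, and each column is 1 of the 29 libraries. Colour gives RPKM on a log scale, with the lowest values drawn at a common floor. The whole family lights up in 3 of the 6 day 3 dermis libraries (WT b, icKO a and icKO b), at a lower level in week 1 WT dermis, and faintly in vehicle icKO epidermis libraries a, b and c, while Krtap3-2 stands alone in WT epidermis.

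Day 3 dermis held the highest Krtap levels of the series, and they did not follow genotype. Summed over the family, the WT libraries held 22.6, 10591 and 11.1 RPKM and the libraries labelled icKO 31648, 40591 and 12.2 RPKM. Thus 1 WT library and 2 libraries labelled icKO were full of Krtap transcripts, the other 3 were nearly without them, and the groups overlapped, with the 2 highest libraries labelled icKO and the lowest WT. In the 3 high libraries the family made up 2.03%, 5.79% and 7.48% of all RPKM, and in the others at most 0.00442%. For 53 members each of the 3 high libraries exceeded each of the other 3. The exception was Krtap13, listed above 0.01 RPKM only in icKO library b, at 0.612 RPKM. Because the high libraries were set by the family's own sum, this count describes how alike the members were and is no test. The share of all genes with this split is not given here.

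**Figure D2:**
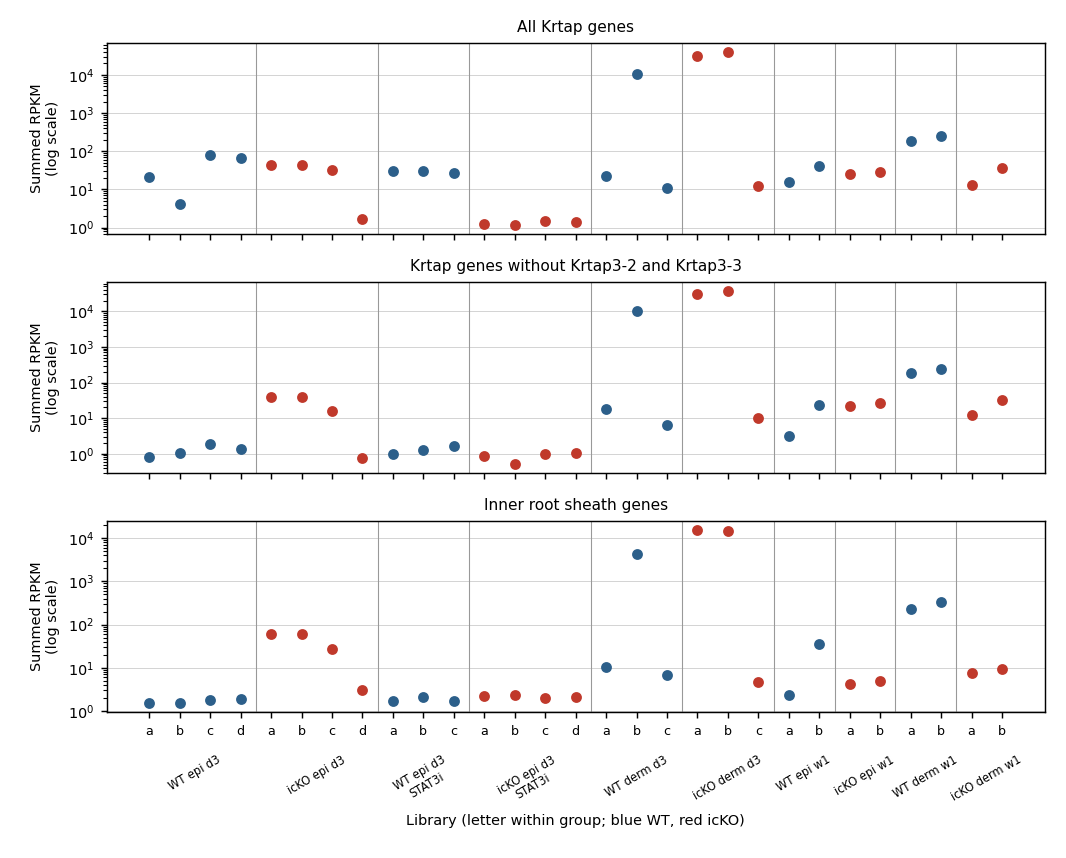
Summed RPKM on a log scale, 1 point per library, for all Krtap genes, for Krtap genes without Krtap3-2 and Krtap3-3, and for inner root sheath genes, with groups side by side and blue for WT and red for icKO. In day 3 dermis the same 3 libraries are high in all panels; in day 3 epidermis the WT libraries hold Krtap signal without inner root sheath signal, and vehicle icKO a, b and c hold both.

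The high libraries carried the other parts of a growing follicle as well. Hoxc13, which drives hair keratin genes, was 3.69, 19.1 and 1.86 RPKM in WT and 86.3, 84.3 and 2.97 in icKO. Krt85, a keratin of the early hair shaft, was 0.274, 189 and 0.347 in WT and 889, 1002 and 0.103 in icKO. Krt71, a keratin of the inner root sheath around the shaft, was 2.57, 1302 and 0.943 in WT and 4201, 4682 and 1.01 in icKO. These genes were high in the same 3 libraries as Krtap, which is how the label of the family as hair proteins was checked. Dlx3 itself was 3.58, 20.5 and 2.19 RPKM in WT and 64.3, 65.9 and 1.75 in icKO, the reverse of what the labels say of libraries a and b; therefore no direction by genotype is drawn from this tissue. Krt14, a keratin of basal cells, varied less, from 2384 to 5065 RPKM in these dermis libraries, beside 359 to 1667 RPKM of the collagen gene Col1a1. RNA of whole tissue cannot separate fewer hair cells from less RNA per cell.

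The most abundant members were of the glycine- and tyrosine-rich kind. Krtap8-1 was 1.81, 1413 and 0.422 RPKM in WT and 5189, 5569 and 1.32 in icKO. Krtap7-1 was 1.69, 1249 and 0.591 in WT and 4010, 4511 and 1.31 in icKO. Both were high in the same 3 libraries and below 2 RPKM in the rest. Krtap22-2, also of this kind, was 0.921, 906 and 0.429 in WT and 2868, 3171 and 1.01 in icKO. Of the high-sulfur kind, Krtap3-1 was 2.78, 627 and 0.830 in WT and 2144, 2572 and 1.43 in icKO. Krtap3-2, which is the leading member of epidermis below, was 3.47, 261 and 4.25 RPKM in WT and 798, 1067 and 1.81 in icKO, below Krtap3-1 in each high library. At least 100 RPKM was reached by 25 members in WT b, 40 in icKO a and 45 in icKO b. At the low end were Krtap20-2 (8.81 RPKM in icKO b), Krtap27-1 (11.3) and Krtap13.

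The 3 high libraries differed among themselves by subfamily. The ratio of icKO b to icKO a had a median of 1.34 over 53 members and ran from 0.545 in Krtap20-2 to 25.3 in Krtap5-3. Subfamilies 7, 8, 11 and 22 were nearly level between these libraries, at 1.12, 1.07, 1.05 and a median of 1.11. Subfamilies 5 and 10 had medians of 2.57 and 1.96, and Krtap12-1 had a ratio of 1.64. Krtap17-1 stood at 1.25 and Krtap26-1 at 0.769. Subfamily 19 stood at 1.99 and subfamily 31 at 2.55. Between icKO a and WT b the median ratio was 3.09, and subfamily 19 had the low median of 1.9 over 6 members. These are ratios of single libraries, with no replicate check.

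The test of icKO against WT in day 3 dermis called no gene. Tests here and below used limma on log2(RPKM + 1), with Benjamini-Hochberg adjustment at 0.05 over all genes that reached 1 RPKM in as many libraries as the smaller group; a difference on this scale understates the change of a gene near or below 1 RPKM. Of 51 members tested, 0 passed, and of 13017 genes tested 0 passed (0%). At an unadjusted p under 0.05 there were 0 members and 1643 genes (12.6%). All 51 differences were positive, with a median of 3.30 on the log2 scale against -0.01 over all genes. The smallest p-values belonged to Krtap24-1 (2.51, SE 1.5, limma adjusted p = 0.43) and Krtap27-1 (1.72, SE 1.03, adjusted p = 0.43). With icKO library c left out, limma called 7 of 52 members, all higher in the libraries labelled icKO, where 11.5% of 13391 genes were.

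In vehicle-treated day 3 epidermis, Krtap3-2 was the dominant member and fell in icKO, while most of the family was seen in some icKO libraries and hardly in WT. Krtap3-2 was 19.9, 3.17, 75.8 and 61.3 RPKM in WT and 1.61, 1.32, 15 and 0.738 in icKO. WT library b and icKO library c lay between the others, and the groups overlapped through them. The difference was -2.82 (SE 0.80, limma adjusted p = 0.0355), with means of 40.04 ± 34.1 RPKM in WT and 4.67 ± 6.90 in icKO (SD, n = 4 each). By Xist and Ddx3y, WT a, b and d were male, and WT c and icKO a, b and d were female. Sex was thus nearly aligned with genotype in this comparison, and only WT c broke the alignment apart from the mixed icKO c. Of the 2 members tested 1 was called lower, where 3.7% of 13095 genes were. Leaving out WT c, WT d, icKO a, icKO b or icKO d in turn raised the adjusted p to between 0.0859 and 0.109, and averaging icKO a and b, an alternative chosen after seeing the data, gave -2.63 with adjusted p = 0.136. The call was also lost in a fit of the vehicle groups alone (adjusted p = 0.161) and with no filter (0.0562). Without icKO c alone the difference of Krtap3-2 was -3.53 with adjusted p = 0.00587. Without WT b and icKO c, also chosen after seeing the data, the difference was -4.40 with adjusted p = 8.13e-06.

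The close relative Krtap3-3 did not pass in vehicle-treated skin. It was 0.925, 0.0497, 4.29 and 2.83 RPKM in WT and 1.63, 2.13, 1.42 and 0.175 in icKO, with overlapping groups. The difference of Krtap3-3 was -0.20 (SE 0.40, limma adjusted p = 0.761). Among WT libraries it followed the order of Krtap3-2, highest in c and lowest in b. Krtap3-1, which shared only 8.83% of its windows, was 0.258, 0.649, 0.807 and 0.660 in WT and 2.64, 2.33, 1.71 and 0.583 in icKO, and was under the filter. Krt32, a hair keratin, was ordered like Krtap3-2 among the WT libraries, at 4.08, 1.15, 12.9 and 7.46 RPKM, against 1.12, 0.853, 1.91 and 0.703 in icKO, and fell by 1.51 on the log2 scale. Krt85 was no higher than 0.0263 RPKM in these WT libraries, so Krtap3-2 was measured there without this shaft keratin.

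**Figure D3:**
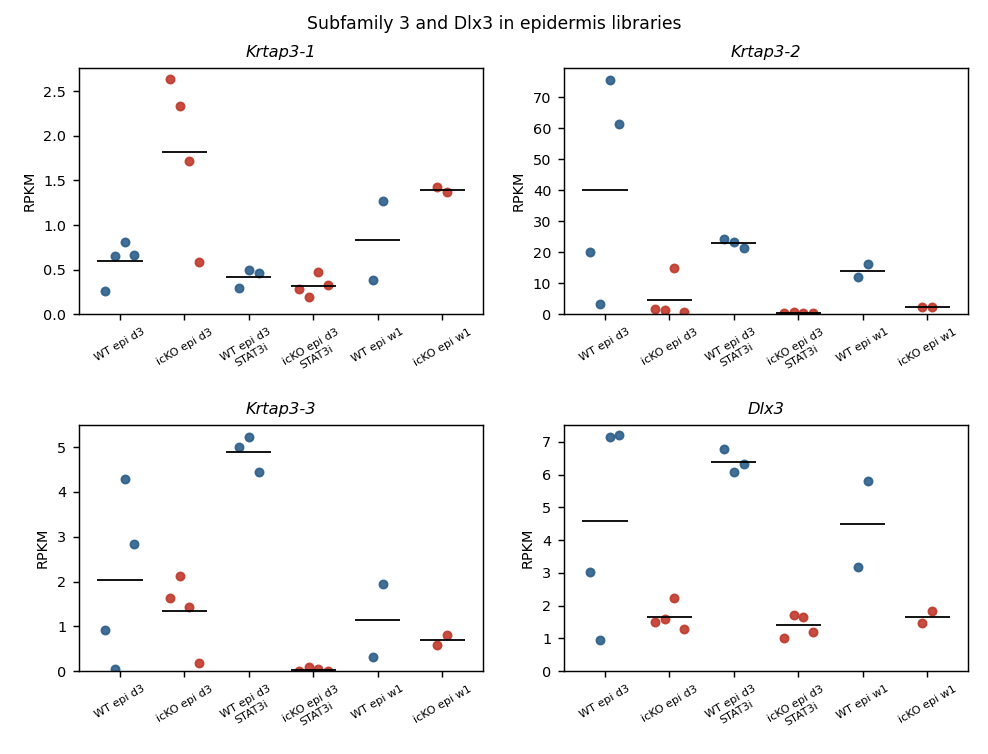
RPKM of Krtap3-1, Krtap3-2, Krtap3-3 and Dlx3 in each epidermis library (points) with the group mean (line), for day 3 vehicle, day 3 STAT3 inhibitor and week 1. Krtap3-2 has the higher mean in WT in each pair of groups, but vehicle WT b (3.17 RPKM) and icKO c (15 RPKM) overlap; Dlx3 is lowest among vehicle WT libraries in the same library b.

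Krtap3-2 and Krtap3-3 set aside, the family summed to 0.842 to 1.9 RPKM in vehicle WT and to 40, 39.2, 16.3 and 0.762 RPKM in icKO. Krtap3-2 was 74.1% to 93.5% of the family's RPKM in WT, but 3.73%, 3.10%, 45.8% and 44.0% in icKO a, b, c and d. Libraries icKO a, b and c were the 3 highest of all 15 day 3 epidermis libraries for 44 of the 52 members listed above 0, whereas icKO d was listed at 0 for 45 of 54. The share of all genes with this order is not given here, and a and b may not be separate samples. The count is thus a description and is not read as particular to the family. Krtap8-1 was 5.47, 5.47, 1.76 and 0 RPKM in icKO and at most 0.177 in WT. Krtap7-1 was 3.57, 3.82, 1.52 and 0 in icKO and at most 0.0648 in WT. In icKO a and b, as in the hair-rich dermis libraries, Krtap8-1, Krtap7-1, Krtap22-2 and Krtap3-1 were the 4 most abundant members, in that order.

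Inner root sheath genes were high in the same libraries, while the other hair lists overlapped between genotypes. The 9 inner root sheath genes summed to 60.3, 61.1, 26.7 and 3.01 RPKM in icKO and to 1.5 to 1.86 in WT. Krt71 was 21.3, 22, 9.03 and 0.290 in icKO. Hair shaft keratins, which include Krt32, summed to 4.68, 1.79, 14.8 and 8.52 RPKM in WT and 17.1, 16.2, 9.03 and 2.43 in icKO. Matrix and shaft regulators summed to 63.1 to 149.9 RPKM in WT and 67.1 to 75.6 in icKO, and icKO a, b and c lay within the WT range. Relative to the mean of icKO a and b, library c held 41.2% of the summed Krtap RPKM without Krtap3-2 and Krtap3-3, 44% of the inner root sheath sum and 40.5% of Xist, and 53.6% of the Ddx3y level of the male vehicle WT libraries. The part of sex in the level of a single library was not tested. Skeletal muscle markers, 7 of 7 listed, summed to 9141 to 13801 RPKM in WT and 7356 to 13163 in icKO, with none at 0 in every library. Macrophage markers, 5 of 5 listed, divided the WT group, with sums of 1137, 1141, 216 and 251 RPKM in WT and 839 to 1045 in icKO. The WT libraries low in these markers, c and d, were those highest in Krtap3-2, and the part of this difference was not tested. Pigment cell markers, 6 of 6 listed and none at 0 in every library, separated the genotypes, with sums of 10.7 to 12.3 RPKM in WT and 27.9, 29.1, 18.9 and 21.6 in icKO, and their part in the Krtap values was not tested.

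Most members were too low for the test in vehicle-treated skin. With no filter on low values, 18 of 52 members were called higher in icKO by limma, beside 6.04% of 20626 genes. Among them were Krtap8-1 (1.64, adjusted p = 0.0434), Krtap7-1 (1.39, adjusted p = 0.0387), Krtap1-5 (0.82) and Krtap3-1 (0.77). Without library a or b the count was lost: it was 0 without a, 0 without b and 0 with the pair averaged, but 27 without c and 42 without d. The share of all genes called in these refits is not given here, so the larger counts are not read as particular to the family. With a term for sex and without c, 2 members were called, both lower. Every icKO library exceeded every WT library in 3 of 52 members (5.77%), below the 6.46% of all genes.

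Of other hair genes tested in vehicle-treated skin, counts were small. Tchh, which encodes trichohyalin of the inner root sheath, was the only gene of its list that passed the filter and rose by 1.5 on the log2 scale (limma adjusted p = 0.00773), with 8.2, 8.70, 4.25 and 1.73 RPKM in icKO. Of 11 matrix and shaft regulators, 1 fell, the signalling ligand Bmp4 (-0.65). Of 4 cross-linking and modifying genes, 1 rose, the aminopeptidase Lap3 (0.44). Krt32 was the only hair shaft keratin tested. Of all genes tested in this comparison, 9.12% rose and 3.7% fell.

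Under the STAT3 inhibitor Krtap3-2 and Krtap3-3 separated fully by genotype, and Krtap3-1 did not. Krtap3-2 was 24.2, 23.4 and 21.4 RPKM in WT and 0.381, 0.547, 0.431 and 0.326 in icKO. Krtap3-3 was 5.01, 5.24 and 4.44 RPKM in WT, and in icKO 0.0927 and 0.0466 in libraries b and c and listed near 0 in a and d. No icKO library approached the WT range for either gene. Krtap3-1 was 0.296, 0.490 and 0.464 RPKM in WT and 0.280, 0.190, 0.476 and 0.328 in icKO, with overlapping groups, and was under the filter. Krtap3-2 fell by 4.08 (SE 0.86, limma adjusted p = 0.00314) and Krtap3-3 by 2.51 (SE 0.44, adjusted p = 0.000996). Thus 2 of 2 members tested were lower, where 14.1% of 13241 genes were. Both entered the test through the WT libraries alone. With no filter 2 of 44 members were lower, where 1978 of 20744 genes were. The 3 WT libraries were male and the 4 icKO libraries female by Xist and Ddx3y, so sex and genotype cannot be told apart within this comparison. A fit with a term for sex, which rests on the 1 female vehicle WT library, and without vehicle icKO c, which has no sex call, left Krtap3-2 at -6.20 (adjusted p = 0.00909). The rest of the family was near the floor in both genotypes, at 1 to 1.71 RPKM summed without Krtap3-2 and Krtap3-3 in WT and 0.505 to 1.04 in icKO.

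Beside these members, 1 of 10 matrix and shaft regulators rose and 3 fell in icKO under the inhibitor, and of 4 cross-linking genes 2 rose and 1 fell, where 19.9% of all genes tested rose and 14.1% fell. Dlx3 was 6.77, 6.07 and 6.31 RPKM in WT and 1.01, 1.71, 1.66 and 1.19 in icKO. Fibroblast markers, 6 of 6 listed and none at 0, also separated the genotypes, with sums of 8755 to 10577 RPKM in WT and 2598 to 3799 in icKO, and so did suprabasal keratinocyte markers, with 4107 to 4408 against 8045 to 10049.5 RPKM; their part in the Krtap difference was not tested.

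The inhibitor itself changed no tested member past the threshold. In WT, Krtap3-3 was higher with inhibitor by 1.22 (SE 0.44, limma adjusted p = 0.0651) and Krtap3-2 differed by -0.09 (adjusted p = 0.954), so 0 of 2 passed, against 18.8% of 13211 genes, and 1 of the 2 had an unadjusted p under 0.05; without vehicle WT c, 1 passed. The WT libraries with inhibitor spanned 21.4 to 24.2 RPKM of Krtap3-2, within the vehicle span of 3.17 to 75.8. In icKO no member passed the filter. With no filter, 5 of 51 members were lower with inhibitor (Krtap3-1, Krtap4-8, Krtap19-2, Krtap1-4 and Krtap31-1), beside 1.78% of 20780 genes. This count was 0 without vehicle icKO a, without b, without c or with the close pairs averaged, and 43 without d. The share of all genes called without d is not given here. All 51 differences were negative, and the high libraries were vehicle icKO a, b and c.

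Whether the genotype difference itself changed with inhibitor was tested as an interaction. Of 5 members tested 0 passed, where 2.14% of 13563 genes did, and 4 of the 5 had an unadjusted p under 0.05. All 5 estimates were negative: Krtap3-3 -2.31 (SE 0.60, limma adjusted p = 0.0556), Krtap8-1 -1.76, Krtap7-1 -1.35, Krtap3-2 -1.26 and Krtap3-1 -0.87. Without icKO d, 4 of the 5 passed, and without WT a, b or c, 1 did. For Krtap3-2 the estimate turned to 0.33 without WT b and icKO c.

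At week 1, epidermis again held more Krtap3-2 in WT, while members of subfamily 19 were higher in icKO. The summed family was 15.5 and 41.5 RPKM in WT and 25.2 and 29.5 in icKO, so sums overlapped. Krtap3-2 was 11.9 and 16.2 RPKM in WT and 2.38 and 2.20 in icKO. It fell by 2.18 (SE 0.21, limma adjusted p = 0.00265), with adjusted p = 0.0741 when WT a was left out and 0.0651 when WT b was. Krtap17-1, a member of chromosome 11 with no shared windows, was 1.13 and 1.14 in WT and 0.247 and 0.491 in icKO and fell by 0.65 (SE 0.14, adjusted p = 0.0171).

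Krtap19-5 was 0.162 and 0.904 RPKM in WT epidermis at week 1 and 1.70 and 2.03 in icKO, and rose by 0.94 (SE 0.26, limma adjusted p = 0.0326). Krtap19-9b rose by 0.90 (adjusted p = 0.0297) and Krtap6-5 by 0.85 (adjusted p = 0.0166). In a fit of all 8 libraries Krtap19-9b (adjusted p = 0.0838) and Krtap6-5 (0.0824) missed the threshold, and with a pseudocount of 0.1 RPKM Krtap19-5 (0.0625) and Krtap19-9b (0.0506) did. All 3 genes encode proteins of the glycine- and tyrosine-rich kind. In all 3 both icKO libraries lay above both WT libraries, as in 18 of 50 members (36%), where 19.9% of 19974 genes did so. Both icKO libraries lay below in 2 of 50 members (4%), where 49.3% of genes did so. The order was not particular to this kind: Krtap3-1, of the high-sulfur kind, was 0.385 and 1.27 RPKM in WT and 1.42 and 1.37 in icKO. Thus of 9 members tested 3 rose, where 11.7% of 11796 genes did, and 2 fell, where 43.6% did. The 3 that rose entered the test through the icKO libraries alone, and Krtap17-1 through the WT libraries alone. With no filter 2 of 50 members were called higher and 2 lower, where 1258 and 4961 of 19974 genes were. The median of all genes in this comparison was -0.50, and quantile normalization moved it to -0.08 and the calls to 4 higher and 1 lower. The calls were not stable to leaving a library out, which leaves 1 in its group. The differences then ran from 0.59 to 1.30 for Krtap19-5, 0.60 to 1.19 for Krtap19-9b and 0.63 to 1.08 for Krtap6-5. Krtap8-1 was 0.101 and 3.50 in WT and 1.30 and 2.44 in icKO and did not pass (0.34, SE 0.68, adjusted p = 0.694).

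The WT epidermis libraries of week 1 differed from each other in hair content. The inner root sheath sum was 2.29 RPKM in WT a and 36.1 in WT b, and 4.31 and 4.91 in icKO. Tchh made up most of the icKO sums, at 3.62 and 4.19 RPKM, against 1.57 and 5.85 in WT. Krt71 was 0.159 and 0.278 in icKO and 0.135 and 8.63 in WT. Krt85 of the shaft was 0.0258 and 0.0881 in icKO and 0.0832 and 1.55 in WT. Krtap RPKM without Krtap3-2 and Krtap3-3, divided by the inner root sheath sum, was 5.16 and 5.4 in the icKO libraries and 1.42 and 0.648 in WT. The highest value in any other library of the series was 3.49, in week 1 icKO dermis b. Other cell types differed between the genotypes as well. Suprabasal keratinocyte markers, 6 of 6 listed, summed to 10132 and 9508 RPKM in WT and 2480 and 994 in icKO, with Krt10, a keratin of suprabasal cells, at 5781 and 5196 against 787 and 77.4. Macrophage markers, 4 of 5 listed, summed to 14.3 and 12.4 in WT and 51.3 and 235 in icKO, and adipocyte markers, 5 of 5 listed, to 3.69 and 6.94 against 178 and 39.8. In none of these lists was a listed marker at 0 in every library, and their part in the Krtap differences was not tested. Of other hair genes, 6 of 10 matrix and shaft regulators and Krt32, the 1 hair shaft keratin tested, fell, where 43.6% of all genes tested did.

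In week 1 dermis the summed family was lower in both icKO libraries than in either WT library. The sum was 185 and 246 RPKM in WT and 13 and 35.6 in icKO. Krtap8-1 was 56.1 and 45.4 RPKM in WT and 3.74 and 6.82 in icKO. Krtap7-1 was 53.6 and 44.5 in WT and 1.14 and 4.10 in icKO. For both members the lowest WT library was several times the highest icKO library. Krtap8-1 fell by 3.08 (SE 0.25, limma adjusted p = 0.00196) and Krtap7-1 by 3.92 (SE 0.38, adjusted p = 0.00196).

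All 18 members tested fell in week 1 icKO dermis, where 40.9% of 12744 genes did. Members could enter this test through the WT libraries alone, where 18 and 30 reached 1 RPKM against 4 and 10 in icKO. The filter thus favoured members lower in icKO. Their median difference was -1.81, against -0.38 over all genes, and without WT a 29 of 30 members tested fell, where 35.8% of 13026 genes did. With quantile normalization, which moved the median of all genes to 0.00, 12 of the 18 were called, all lower, and the member differences ran from -3.70 to -0.31. Krtap22-2 was 17.9 and 28.2 RPKM in WT and 1.22 and 3.00 in icKO (-2.98, SE 0.33, adjusted p = 0.00203 by limma). Krtap11-1, of the high-sulfur kind, was 8.69 and 13.9 in WT and 0.483 and 1.18 in icKO (-2.74, SE 0.27, limma adjusted p = 0.00196). In both, the groups were far apart.

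**Figure D4:**
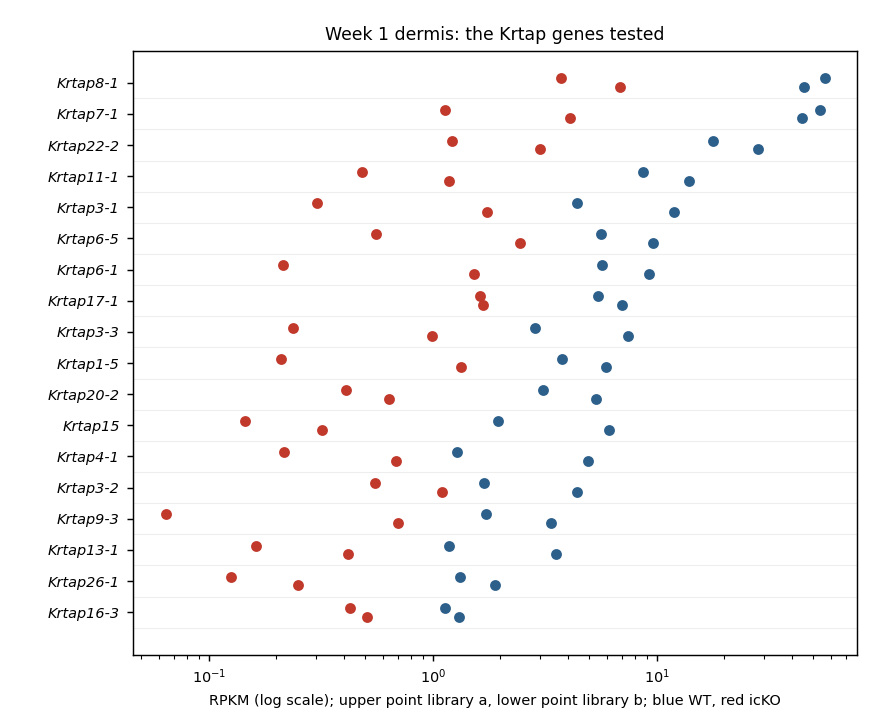
RPKM on a log scale for the 18 Krtap genes tested in week 1 dermis, with library a above library b for each gene, blue for WT and red for icKO. In each gene the WT points lie to the right; the gap is widest for Krtap7-1 (44.5 and 53.6 against 1.14 and 4.10 RPKM) and narrow for Krtap16-3 (-0.60 on the log2 scale).

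The smaller falls in week 1 dermis included Krtap17-1, at 5.49 and 7.0 RPKM in WT and 1.63 and 1.68 in icKO (-1.44, SE 0.17). Krtap16-3 had the smallest (-0.60, SE 0.14, limma adjusted p = 0.0142). Krtap3-2, the member of epidermis, was 1.69 and 4.40 in WT and 0.550 and 1.10 in icKO (-1.08, SE 0.33, adjusted p = 0.0359). The low members did not reach the filter. With no filter 10 of 51 were called lower, a share near the 18.2% of 21015 genes. The WT mean was above the icKO mean in all 51 listed above 0, though Krtap5-2 was listed at or near 0 in every library of this tissue. Both WT libraries exceeded both icKO libraries in 35 of 51 members (68.6%), where 47.3% of genes did so.

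Hair genes outside the family fell in the same dermis libraries. All 13 hair shaft keratins and all 8 inner root sheath genes tested fell, with 9 of 11 matrix and shaft regulators and 4 of 5 cross-linking genes. Of all genes tested 40.9% fell. With no filter, 15 of 15 shaft keratins and 8 of 9 inner root sheath genes were called lower, where 18.2% of genes were. Krt85 was 14.6 and 18.3 RPKM in WT and 0.707 and 0.994 in icKO, and Krt71 was 67.0 and 100.6 against 1.21 and 1.86. Keratinocyte content differed too: Krt14 was 784 and 1164 RPKM in WT and 329 and 254 in icKO, and the 5 basal keratinocyte markers summed to 3270 to 3802 against 813 to 1137. Fibroblast markers summed to 2203 to 2856 in WT and 1897 to 1966 in icKO, and macrophage markers to 674 to 698 and 1121 to 1136. The part of these cell types in the Krtap difference was not tested. Library WT a was female and the other 3 male, and the male WT library b alone held 246 RPKM of Krtap against 13 and 35.6.

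Set against epidermis at week 1, WT dermis held more of most members and less of Krtap3-2. Of 18 members tested between WT tissues, 17 were higher in dermis, where 33.9% of 13108 genes were. Members could enter this test through dermis alone, where 18 and 30 reached 1 RPKM against 2 and 8 in epidermis. The filter thus favoured members higher in dermis. With no filter 19 of 51 were called higher, where 5455 of 20426 genes were. Krtap3-2 alone was lower, at 1.69 and 4.40 RPKM in dermis and 11.9 and 16.2 in epidermis (-1.97, SE 0.33, limma adjusted p = 0.00148). Krtap8-1 was 0.101 and 3.50 RPKM in WT epidermis and was higher in dermis by 4.53 (SE 0.59, adjusted p = 0.000428). The tissues also differed in how tamoxifen was given, so tissue and route cannot be told apart.

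Between icKO tissues at week 1 few members passed. Of 11 members tested, 2 passed, where 63% of 12353 genes did. Krtap17-1 was higher in dermis (0.96, SE 0.16, limma adjusted p = 0.0012) and Krtap19-5 lower (-1.38, SE 0.24, adjusted p = 0.00159). Krtap19-5 was listed at 0 and at 0.201 RPKM in icKO dermis, against 1.70 and 2.03 in icKO epidermis.

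The genotype difference was more negative in dermis than in epidermis for 17 of 21 members tested by interaction, where 15.3% of 13539 genes were. Members could enter this test through WT dermis alone. With no filter 12 of 51 members passed in this direction, where 1932 of 21572 genes did. Krtap22-2 had the most negative estimate (-4.00, SE 0.58, limma adjusted p = 0.00349), followed by Krtap7-1 (-3.87, SE 0.83, adjusted p = 0.0131). Krtap3-2 was the 1 member with a positive estimate, and it did not pass (1.10, SE 0.47, adjusted p = 0.11). Without icKO dermis a the count was 6, without WT epidermis a it was 7, and without WT dermis b it was 7 lower and 1 higher.

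The make-up of the Krtap signal differed between libraries. Subfamily 19 was 24.5% and 27.3% of the summed Krtap RPKM in week 1 icKO epidermis, against 3.48% and 8.83% in WT epidermis, 0.822% and 2.60% in WT dermis and 3.25% and 4.33% in icKO dermis of the same week. In the 3 hair-rich libraries of day 3 dermis it was 15.3%, 9.69% and 14.3%, and in vehicle icKO epidermis a and b 10.1% each. Subfamilies 8 and 7, each with 1 member, led in week 1 WT dermis, with 30.4% and 18.4% for Krtap8-1 and 29% and 18.1% for Krtap7-1. Subfamily 3 was 55.4% in vehicle icKO epidermis c, the library with 15 RPKM of Krtap3-2. Krtap17-1 alone was 12.5% in week 1 icKO dermis a. Tables were normalized separately, so these shares were compared across tables as descriptions only.

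**Figure D5:**
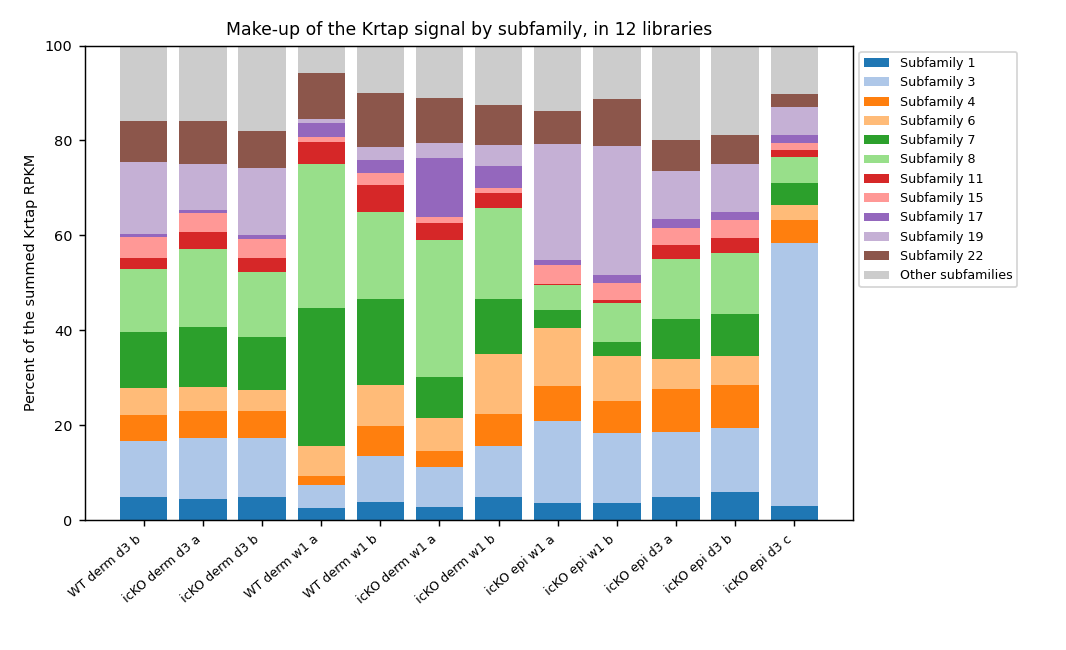
Percent of the summed Krtap RPKM held by each subfamily in 12 libraries, as stacked bars. Subfamilies 7 and 8 are the broadest pair in week 1 WT dermis (29% and 30.4% in library a, 18.1% and 18.4% in b), subfamily 19 is widest in week 1 icKO epidermis (24.5% and 27.3%), and subfamily 3 is widest in vehicle icKO epidermis c (55.4%).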

How the data were processed

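Per the labels, NEBnext (cDNA) and NuGen (library) kits were used. Per the submitters' processing notes, reads were aligned with TopHat2 2.1.0 against mm10 and quantified with Partek. The deposited values were RPKM, as a gene table for day 3 epidermis and as transcript tables for day 3 dermis and week 1, per the file headers. Strand and multiple mapping are not described there. Depth is the deposited count of alignments or FASTQ reads per library, per the file headers, and was used as a range over each table. The deposited comparison tables of the authors were not used here.

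Exact duplicate lines (832, in day 3 dermis) were dropped and transcripts summed per gene. At week 1 an entry named Krtap16-1 carried the accession of Krtap19-2 and was counted as Krtap19-2. Genotype followed the titles, which differ from the genotype field in 2 samples. Values were analysed as log2(RPKM + 1) in limma 3.58.1 (R 4.3.3, empirical Bayes with an intensity trend). Tested genes reached 1 RPKM in a number of compared libraries no lower than the size of the smaller group, with 0.05 as the threshold on the Benjamini-Hochberg adjusted p. The 15 day 3 epidermis libraries shared 1 fit, day 3 dermis and each week 1 tissue had their own, and week 1 tissue and interaction tests used all 8 libraries. The procedure was tested on simulated data. Quoted limma differences are on the log2(RPKM + 1) scale.

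The members and gene lists were chosen with earlier results of these data known. Named genes are the highest member of each subfamily in a table, the 8 largest rises and falls past the threshold or, where fewer than 5 passed, the 5 smallest p-values, and Dlx3, Krt14, Acta1, Col1a1, Krt85, Krt71 and Hoxc13; Krt32, Tchh, Bmp4, Lap3 and other single members were named after their values were seen. Xist and Ddx3y, at 1 RPKM, gave the sex of a library. Alternatives were another pseudocount (0.1 RPKM), no filter, quantile normalization, other fits, and each library left out; pair averaging, a sex term with icKO c left out and leaving out WT b with icKO c were added after seeing the data. Protein sequences were not used here. Depths cannot be tied to lettered columns and RPKM carries no counts, so no counting interval is given.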

Additional observations from a re-analysis of the deposited data

Results flagged for a closer look

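In vehicle-treated icKO epidermis of day 3, Krtap3-2 in library c stood far from the other 3 libraries, at 15 RPKM against 1.61, 1.32 and 0.738. Its gap to the nearest library, divided by the group's range, passed Dixon's critical value. This was 1 of 19 groups and values examined, and chance alone gives about 1 in 20. The same library held both Xist and Ddx3y.

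At week 1 the icKO difference was tested between dermis and epidermis in 1 fit of 8 libraries. By limma's interaction term 17 members differed, all more negative in dermis, and 12 of 51 did with no filter. Members could enter the filtered test through WT dermis alone. Among glycine- and tyrosine-rich members the estimates were -4.00 for Krtap22-2, -3.87 for Krtap7-1, -3.42 for Krtap8-1, -2.92 for Krtap6-1, -2.71 for Krtap6-5, -1.83 for Krtap19-9b, -1.70 for Krtap20-2 and -1.44 for Krtap19-5. For members of other subfamilies the protein kind was not checked here. Their estimates were -2.58 for Krtap3-1, -2.41 for Krtap11-1, -2.24 for Krtap15, -2.19 for Krtap1-5 and -1.88 for Krtap4-1. Further estimates were -1.66 for Krtap9-3, -1.15 for Krtap16-3, -1.11 for Krtap26-1 and -0.79 for Krtap17-1. Route of tamoxifen differed between the tissues and cannot be told apart from tissue.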

How the results depend on the processing

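Of 155 recomputed counts of Krtap calls, 107 stayed within 1.5 times the reported count and 48 did not. With vehicle icKO against WT, 1 member was called; it was 0 in a fit of the compared groups alone, 0 with the closest pairs averaged, 18 with no filter, and 0 to 4 with a library left out. Under the inhibitor the 2 calls held with every library left out (2 to 2). Inhibitor against vehicle gave 0 in icKO, 5 with no filter and 0 to 4 with a library left out, and gave 0 in WT, 1 with a sex term and without icKO c, and 0 to 1 with a library left out. The day 3 interaction gave 0, 1 without WT b and icKO c, and 0 to 4 with a library left out; day 3 dermis gave 0 and 0 to 7. In week 1 epidermis, 5 calls became 3 in the fit of 8 libraries, 3 with a pseudocount of 0.1 RPKM and 0 to 11 with a library left out. In week 1 dermis, 18 became 10 with no filter and 14 to 29 with a library left out. Between week 1 tissues the 18 WT calls were 14 with quantile normalization and 15 to 29 with a library left out, and the 2 icKO calls were 5 with no filter, 4 with quantile normalization and 2 to 3 with a library left out. The 17 week 1 interaction calls were 14 with quantile normalization and 6 to 25 with a library left out. With no filter, the 18 vehicle calls, all higher, were 0 with pairs averaged, 2, both lower, with a sex term and icKO c left out together, and 0 to 42 with a library left out, and the 5 calls of icKO inhibitor against vehicle were 0 with pairs averaged, 0 with a sex term and without icKO c, 0 without WT b and icKO c, and 0 to 43 with a library left out. Signs turned for Krtap3-3 in vehicle skin (-0.62 to 0.15 with a library left out, with 0.10 and 0.15 the positive values), for Krtap3-2 in WT with inhibitor against vehicle (0.45 with a sex term and without icKO c, and -0.95 to 0.45 with a library left out, with 0.35 and 0.45 positive) and for Krtap3-2 in the day 3 interaction (0.33 without WT b and icKO c). The cause was not tested. Of 588 recomputed values of single genes, 517 kept direction and side of the threshold, 47 lost the call, 18 gained one and 6 turned sign. Where a library left out leaves 1 in a group, that library is assumed to vary like the others. Members near 1 RPKM are limited by depth, and 45 of 54 were listed at 0 in vehicle icKO d. No paired analysis was possible because the columns carry no replicate numbers.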
